A study of Homo sapiens with 9 samples.

Results

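The WNT pathway was followed through 42 genes in human cranial neural crest cells (CNCCs) from which the transcription factor SOX9 was removed within hours. The genes were chosen by name for their place in the pathway, with earlier results of these data known. They comprised 4 WNT ligands, 2 R-spondins, 14 receptors and co-receptors, 1 receptor ubiquitin ligase, 7 intracellular components, 5 genes widely used as readouts of the pathway (AXIN2, LEF1, NKD1, SP5 and RNF43, called target genes here) and 9 antagonists. All 42 were among the 18970 gene symbols measured. Single genes were tested where at least 3 of the 9 libraries reached 1 CPM of newly made reads (CPM being reads of a gene relative to the reads of its library), which 34 of the 42 did, among 12037 protein-coding genes overall. WNT11, RSPO3, LGR5, SP5, RNF43, DKK1, WIF1 and NOTUM did not, with between 0 and 13 newly made reads each over all 9 libraries. The last gene inside this limit was WNT3, whose third-highest library had 2.03 CPM, and the first outside it was WNT11, at 0.55 CPM.

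The cells were differentiated from the human embryonic stem cell line H9 after both SOX9 alleles had been edited to carry an FKBP12-F36V degron joined to mNeonGreen and V5 tags. dTAGV-1, a small molecule that brings the tagged protein to a ubiquitin ligase, was given at 500 nM for 3h or 24h, and the 0h group received vehicle. Each of the 3 groups held 3 cultures, S9CC13_R6, S9CC47_R5 and S9CC47_R6, named after 2 edited clones and 2 differentiation batches, so that each clone and batch effect rests on a single pair of cultures. New RNA was marked by 2 h of 100 uM 4-thiouridine, a uridine analog that is read as a C in place of a T when the 3′ ends of transcripts are sequenced (SLAM-seq). The label was added 1 h into the dTAGV-1 treatment for the 3h group, and 22 h into it for the 24h group. The cells of every group were at passage 4 in a medium that held 3 uM CHIR-99021, an inhibitor of the kinase GSK3, together with 50 pg/ml BMP2, bFGF and EGF. Inhibition of GSK3 is known to stabilize β-catenin below the level of the WNT receptors, so all comparisons were made in cells given such a drug, and no library without it was analysed here.

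WNT proteins bind Frizzled receptors (FZD) together with the co-receptors LRP5 and LRP6. In the canonical branch this stops the AXIN, APC and GSK3 complex from marking β-catenin (CTNNB1) for destruction, so that β-catenin joins the TCF and LEF factors at target genes. In the non-canonical branch, WNT5A and related ligands act through the receptor tyrosine kinases ROR1 and ROR2 and through Frizzleds on cell shape and movement. R-spondins strengthen the signal by removing the ubiquitin ligases RNF43 and ZNRF3, which clear Frizzleds from the cell surface. Secreted SFRP proteins and FRZB bind WNTs, and DKK1 blocks LRP5 and LRP6. In the embryo, WNT signals take part in the induction of the neural crest, its migration and the outgrowth of the face.

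Total reads ranged from 16955633 to 28782678 over the 9 libraries and T>C reads, the reads of new RNA, from 3130673 to 5475800. The T>C share of a library lay between 15.9% and 21.3%. All 9 markers of crest mesenchyme were detected, and their summed level in total reads was 4039 to 4057 CPM at 0h, 4892 to 5049 at 3h and 6117 to 6387 at 24h. SOX9 itself is among these markers, and without it the sum of the other 8 was 3264 to 3313 CPM at 0h, 3577 to 3751 at 3h and 4255 to 4602 at 24h. Over the 9 libraries MSX1 had the widest range of these 8, from 594 to 1553 CPM, whereas NR2F2 ranged from 437 to 502. MSX2 was the lowest, at a median of 2.06 CPM. The sum thus need not stand for each of the 8 markers. Of the early migratory crest markers, SOX10 and FOXD3 reached at most 0.153 CPM in any library, whereas PAX3 and PAX7 were present, at a median of 27.5 and 52.8 CPM. Among the stem cell markers POU5F1, NANOG and TDGF1 reached at most 0.203 CPM, whereas LIN28A and DPPA4 were present, at a median of 290.1 and 36.7 CPM. The summed level of 5 chondrocyte markers fell from between 340 and 372 CPM at 0h to between 173 and 226 at 24h. Of these markers ACAN, MATN3 and COMP reached at most 0.823 CPM in any library, so the sum was that of COL2A1 and COL9A1, most of it COL2A1. The part of these shifts in the WNT results was not tested, and in bulk libraries fewer cells of a type cannot be told apart from less RNA per cell. The SOX9 transcript itself had 9493, 9961 and 9914 normalized T>C reads (counts divided by the DESeq2 size factor of the library) at 0h, in the order S9CC13_R6, S9CC47_R5 and S9CC47_R6 that is kept below. It had 18399, 15047 and 17069 at 3h and 23542, 19883 and 20923 at 24h, so the transcript of the degraded protein was higher after dTAGV-1 in all 3 cultures. The libraries do not measure the protein.

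Promoters are shown for the WNT receptors and antagonists whose new RNA fell at 3h, and for SP5 as a target gene that carries TCF/LEF letters. Each line holds the 250 bases before the RefSeq start site on the strand of the gene (GRCh38.p14), 5′ to 3′, with matches in capitals to a TCF/LEF motif (CTTTGAA or CTTTGAT) or to a SOX motif (ACAATG or ACAAAG), both searched on both strands. The windows are chr1:63773767-63774016 on the plus strand for ROR1, chr9:91950229-91950478 on the minus strand for ROR2, chr4:153789084-153789333 on the minus strand for SFRP2, chr2:182866638-182866887 on the minus strand for FRZB and chr2:170715087-170715336 on the plus strand for SP5.
ROR1: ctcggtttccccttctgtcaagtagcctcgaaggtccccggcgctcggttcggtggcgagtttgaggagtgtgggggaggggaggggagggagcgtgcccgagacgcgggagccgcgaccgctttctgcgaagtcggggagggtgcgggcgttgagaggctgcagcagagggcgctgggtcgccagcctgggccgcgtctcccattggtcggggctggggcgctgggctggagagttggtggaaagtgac
ROR2: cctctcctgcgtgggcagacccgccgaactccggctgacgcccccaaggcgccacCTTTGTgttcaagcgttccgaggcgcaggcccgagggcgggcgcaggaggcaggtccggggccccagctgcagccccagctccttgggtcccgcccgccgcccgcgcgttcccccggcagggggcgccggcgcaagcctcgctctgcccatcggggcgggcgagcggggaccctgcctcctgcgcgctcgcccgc
SFRP2: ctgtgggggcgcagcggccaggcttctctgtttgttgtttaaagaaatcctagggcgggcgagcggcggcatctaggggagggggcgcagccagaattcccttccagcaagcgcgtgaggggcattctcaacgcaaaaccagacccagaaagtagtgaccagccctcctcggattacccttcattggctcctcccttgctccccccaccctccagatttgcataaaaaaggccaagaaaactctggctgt
FRZB: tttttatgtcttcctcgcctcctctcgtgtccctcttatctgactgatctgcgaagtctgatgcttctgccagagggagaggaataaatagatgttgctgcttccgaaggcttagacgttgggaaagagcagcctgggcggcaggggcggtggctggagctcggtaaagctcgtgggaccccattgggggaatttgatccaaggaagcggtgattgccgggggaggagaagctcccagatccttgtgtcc
SP5: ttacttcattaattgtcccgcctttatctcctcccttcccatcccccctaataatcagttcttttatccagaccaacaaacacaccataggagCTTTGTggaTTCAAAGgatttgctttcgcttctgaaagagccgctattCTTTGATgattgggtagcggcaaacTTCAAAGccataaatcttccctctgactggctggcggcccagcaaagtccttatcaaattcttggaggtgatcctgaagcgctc

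SP5 held 3 TCF/LEF matches, at 148, 109 and 84 bases before the start, and 1 SOX match at 157 bases. ROR2 held 1 SOX match, at 195 bases before the start, while these letters were not in the ROR1, SFRP2 and FRZB windows. RefSeq promoters were matched by symbol for 28 of the 42 genes. A TCF/LEF match was found in 2 of the 28, SP5 and DKK1, against 5.94% of 35116 promoters. The windows of the target genes LEF1 and RNF43 held no such match. A SOX match was found in 6 of the 28 (FZD1, ROR2, TCF7L2, SP5, RNF43 and DKK1), against 21.2% of all promoters. A match describes letters in this window, and matches of the motifs in SP5 did not overlap. WNT11, FZD2, FZD3, FZD6, FZD7, LRP6, LGR5, ZNRF3, AXIN2, NKD1, DKK2, DKK3, SFRP1 and NOTUM had no entry.

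After 3 h without SOX9, new RNA of the non-canonical receptors ROR1 and ROR2 and of the secreted WNT antagonists FRZB and SFRP2 fell, and new RNA of the target gene NKD1 rose. No ligand, R-spondin, Frizzled or intracellular component was called at this time. In all, 5 of the 34 genes tested (14.7%) were called at a DESeq2 adjusted p-value under 0.1, against 1.79% of all 12037 genes. Of these, 4 were lower (0.789% of all genes) and 1 was higher (1.01%). Because the genes were chosen with earlier results of these data known, the shares here and below describe the list and do not test the pathway. The fit held time, differentiation batch and 1 surrogate variable, a covariate estimated from the libraries themselves, so a fitted change can differ from the plain ratio within cultures. Over the 34 genes, 17 estimates were positive and 17 negative, with a median log2 fold change of 0.03 beside -0.01 over all genes. An unadjusted DESeq2 p-value under 0.05 was found for 6 of them. The share of all genes under that p-value was not counted, so nothing about the pathway is read from it.

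**Figure D1:**
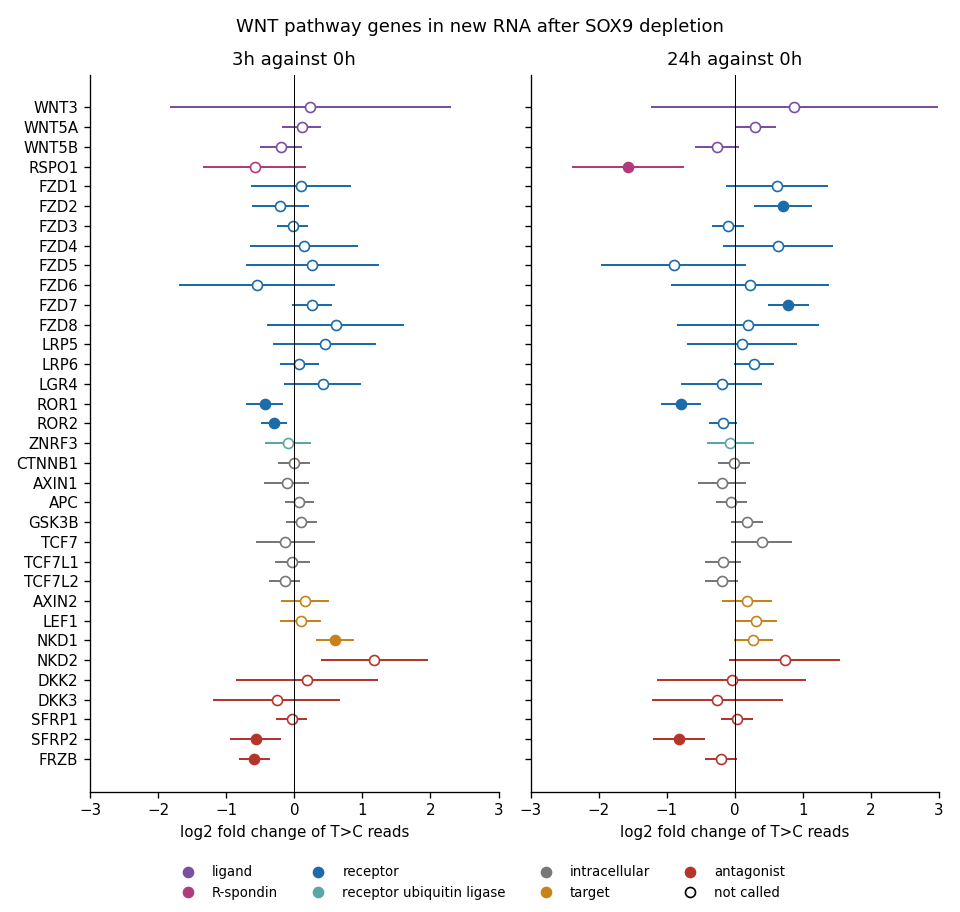
Log2 fold change of T>C reads for the 34 WNT pathway genes tested, at 3h (left) and 24h (right) against 0h, with 95% intervals unadjusted for the number of genes; color gives the role and filled points were called at a DESeq2 adjusted p-value under 0.1. At each time 5 points are filled, and the interval of WNT3 is the widest; part of it lies beyond the axis at 24h.

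FRZB, a secreted Frizzled-related protein first known from cartilage that binds WNTs outside the cell, had the lowest adjusted p-value of the 3h falls. It lies on the minus strand of chromosome 2 from 182833275 to 182866637 (hg38), with its last exon from 182833275 to 182834965. Its normalized T>C reads were 798.1, 853.7 and 824.9 at 0h, 456.4, 550.0 and 592.8 at 3h, and 790.8, 686.4 and 804.6 at 24h. Every 3h library lay below every 0h library, and at 24h S9CC13_R6 and S9CC47_R6 were close to where they began, while S9CC47_R5 remained lower. At 3h FRZB changed by -0.59 on the log2 scale (SE 0.108, DESeq2 adjusted p = 1.18e-05), with -0.81, -0.63 and -0.48 within the 3 cultures. At 24h it was -0.20 (adjusted p = 0.420). The step from 3h to 24h was 0.39 (adjusted p = 0.118) and was called with the culture as a replicate block (0.51, adjusted p = 0.00737).

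SFRP2, a related secreted antagonist (chromosome 4, 153780591 to 153789083, minus strand, last exon 153780591 to 153781755), was lower at both times. Its normalized T>C reads were 209.4, 222.5 and 247.6 at 0h, 112.5, 155.9 and 168.0 at 3h, and 129.0, 129.8 and 174.1 at 24h. The 0h libraries did not overlap with those of either later time, and unlike FRZB the 24h libraries did not return to the starting level. SFRP2 changed by -0.57 at 3h (SE 0.182, DESeq2 adjusted p = 0.0977). Its 24h change was -0.82 (SE 0.19, adjusted p = 0.00111). The 3h call was near the threshold and was lost in 8 of 9 fits that each left out 1 library, being kept without the 3h library of S9CC47_R6. The 24h call was kept in all 9 of them. SFRP1, the third member of this group, encodes another secreted WNT-binding protein and had estimates of -0.04 at 3h and 0.03 at 24h (adjusted p = 0.998 and 0.958). At 24h its normalized T>C reads were lower than at 0h in all 3 cultures, from 814.8, 738.8 and 721.3 to 750.0, 685.4 and 637.2. The fitted sign was thus opposite to that of the group means, and with the culture as a replicate block the estimate was -0.14 (adjusted p = 0.693).

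ROR1 (chromosome 1, 63774017 to 64181498, plus strand, last exon 64177428 to 64181498) encodes a receptor tyrosine kinase for WNT5A. Its normalized T>C reads were 458.4, 556.3 and 506.5 at 0h, 341.3, 366.4 and 380.4 at 3h, and 266.4, 307.4 and 357.8 at 24h. The groups at 3h and 24h both lay wholly below 0h, and within each culture the 24h value was the lowest of the 3 times. The 3h change of ROR1 was -0.44 (SE 0.132, DESeq2 adjusted p = 0.0634). By 24h it had reached -0.79 (SE 0.139, adjusted p = 1.89e-06), while the step from 3h to 24h, -0.35, did not pass (adjusted p = 0.442). The 24h call was kept with any 1 library left out. The 3h call was lost without the 0h library of any culture, or without the 3h or the 24h library of S9CC47_R5, with an adjusted p of up to 0.577.

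ROR2, the paralog that shares WNT5A as a ligand (chromosome 9, 91563091 to 91950228, minus strand, last exon of the canonical transcript 91722601 to 91725107), had normalized T>C reads of 1274, 1369 and 1376 at 0h, 1150, 1187 and 991.9 at 3h, and 1118, 1235 and 1125 at 24h. The fall was small, but all 0h libraries lay above all later ones. The estimate was -0.30 (SE 0.0917, DESeq2 adjusted p = 0.0737) in the 3h comparison, whereas 24h gave -0.17 (adjusted p = 0.420). The 3h call was lost in 8 of 9 fits that left out 1 library, being kept without the 24h library of S9CC13_R6, and with the culture as a replicate block (-0.28, adjusted p = 0.428).

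NKD1, which encodes a feedback inhibitor that binds Dishevelled and is itself induced by WNT signals, rose at 3h (chromosome 16, 50548396 to 50649249, plus strand, last exon 50633192 to 50649249). Its normalized T>C reads were 825.2, 752.1 and 526.3 at 0h, 1311, 1447 and 773.7 at 3h, and 833.4, 849.5 and 514.2 at 24h. S9CC47_R6 was the lowest culture at each time, so the 0h and 3h groups overlapped although NKD1 rose within all 3 cultures, by 0.67, 0.94 and 0.56 on the log2 scale. The fit gave 0.59 for 3h (SE 0.135, DESeq2 adjusted p = 0.00153), whereas 24h gave 0.27 (adjusted p = 0.378). The 3h call was lost without the 3h library of S9CC47_R5 (0.51, adjusted p = 0.195) and without the 24h library of S9CC47_R6 (0.58, adjusted p = 0.597). It was also lost in the fit without the surrogate variable. With the culture as a replicate block the step down from 3h to 24h was called (-0.68, adjusted p = 3.22e-06), while without it the estimate was -0.32 (adjusted p = 0.553).

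**Figure D2:**
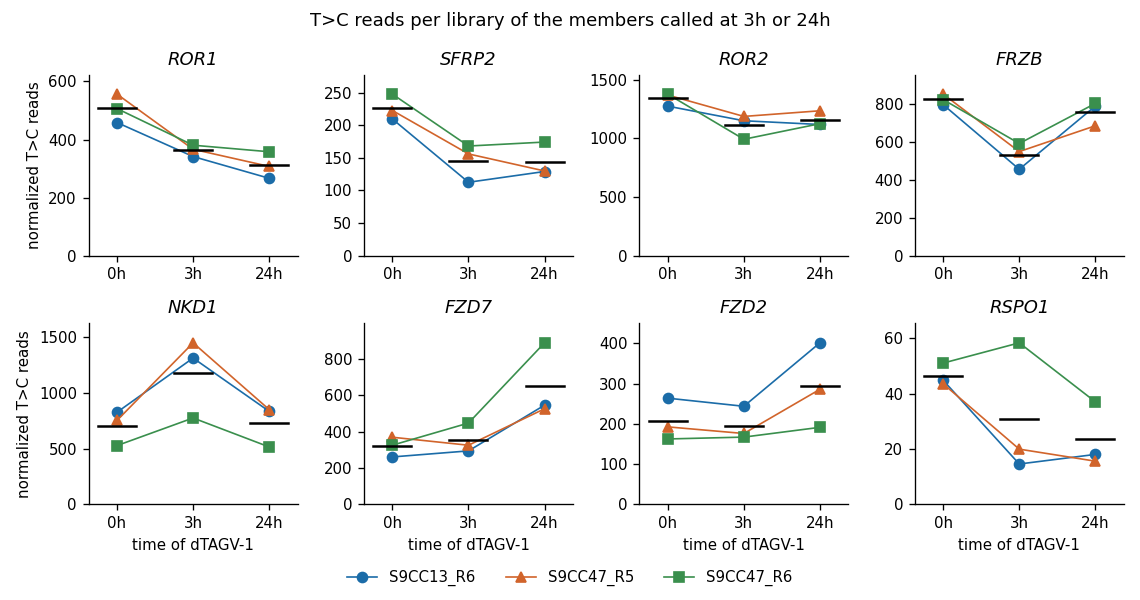
Normalized T>C reads per library (vertical axis, from 0) at 0h, 3h and 24h of dTAGV-1 for the 8 WNT pathway genes called at 3h or 24h; colored points joined by lines are the 3 cultures and black bars the group means. ROR1 and SFRP2 lie below 0h at both later times, FRZB and NKD1 move at 3h and lie nearer their 0h values at 24h, and FZD7 and FZD2 rise at 24h.

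The other target genes with enough reads, AXIN2 and LEF1, were not called at either time. AXIN2, which encodes a scaffold of the destruction complex and is the most widely used readout of β-catenin activity, had normalized T>C reads of 294.9, 145.1 and 196.5 at 0h, 358.5, 181.0 and 226.4 at 3h, and 263.6, 166.2 and 183.7 at 24h. S9CC13_R6 was the highest culture throughout, so the groups overlapped, but within each of the 3 cultures AXIN2 was higher at 3h than at 0h and lower again at 24h than at 3h, and total reads moved the same way. The 3h estimate was 0.26 with the culture as a replicate block (SE 0.172, DESeq2 adjusted p = 0.981). The estimate was 0.15 at 3h (95% interval -0.19 to 0.49, DESeq2 adjusted p = 0.991) and 0.18 at 24h (-0.18 to 0.53, adjusted p = 0.781). The 24h estimate has the opposite sign to the group means and turned to -0.03 without the surrogate variable or with the culture as a replicate block, so that no direction can be given at 24h.

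LEF1, which encodes a DNA-binding partner of β-catenin, had normalized T>C reads of 329.2, 309.6 and 297.1 at 0h, 350.6, 307.5 and 344.2 at 3h, and 443.7, 330.2 and 374.1 at 24h. The lowest 24h library was just above the highest 0h library, but the estimate of 0.31 did not pass over all genes (unadjusted 95% interval 0.02 to 0.60, DESeq2 adjusted p = 0.319). At 3h it was 0.09 (-0.19 to 0.37, adjusted p = 0.998). Of the 5 target genes, SP5 and RNF43 were too low to test. SP5 had no T>C read in 37982159 over the 9 libraries, which allows a level of up to 0.0790 CPM (3 reads, counting error only).

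**Figure D3:**
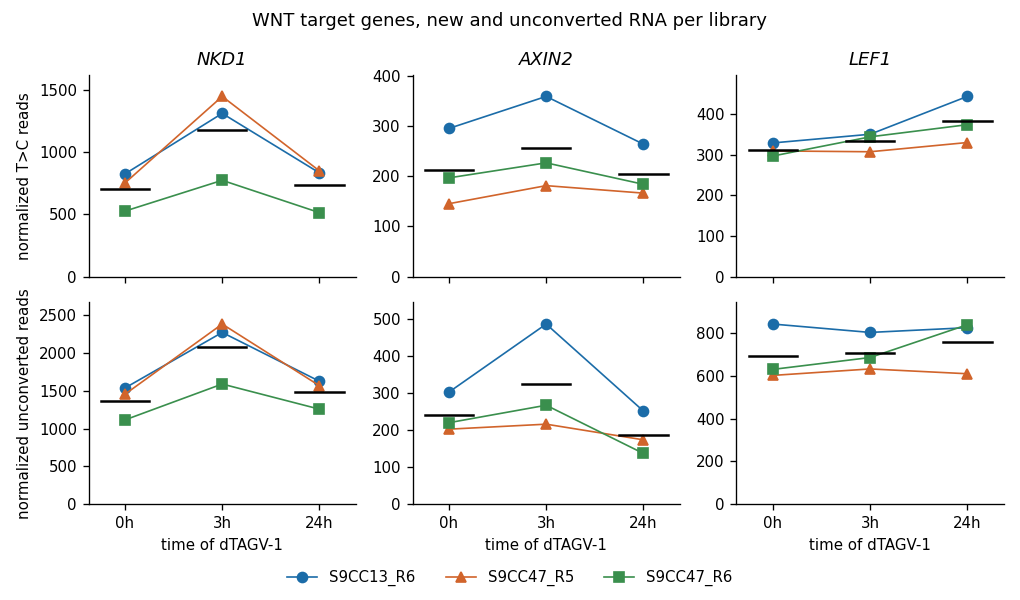
Normalized T>C reads (top) and unconverted reads (bottom) per library at 0h, 3h and 24h for the target genes NKD1, AXIN2 and LEF1; colored points joined by lines are the 3 cultures, black bars the group means, and each panel has its own axis from 0. In all 3 cultures NKD1 is highest at 3h in both kinds of read. AXIN2 is highest in S9CC13_R6 at each time.

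At 24h the genes called were receptors, an R-spondin and an antagonist. New RNA of the Frizzleds FZD7 and FZD2 rose, new RNA of ROR1, SFRP2 and RSPO1 fell, and no target gene or intracellular component was called. Again 5 of the 34 genes were called (14.7%), against 4.98% of all genes. Of these, 3 were lower (2.59% of all genes) and 2 higher (2.38%). An unadjusted DESeq2 p-value under 0.05 was found for 8 of the 34, again without a share counted over all genes. With the culture as a replicate block 3 were called, FZD7, ROR1 and SFRP2, while all genes called numbered 722 in place of 599. The 24h and 3h comparisons share their 0h libraries, so they are not independent of each other.

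FZD7, a Frizzled receptor expressed in stem cells and neural crest (chromosome 2, 202033855 to 202038441, plus strand, a single exon), had normalized T>C reads of 260.5, 368.8 and 325.2 at 0h, 293.7, 324.8 and 446.9 at 3h, and 545.2, 525.5 and 888.3 at 24h. All 24h libraries lay above every earlier library, and S9CC47_R6 was the highest. The log2 fold change at 24h was 0.79 (SE 0.146, DESeq2 adjusted p = 8.67e-06), with 1.06, 0.51 and 1.45 within the cultures, and the call was kept with any 1 library left out. At 3h the estimate was 0.26 (adjusted p = 0.743). The step from 3h to 24h was 0.52 (SE 0.156, adjusted p = 0.0769).

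FZD2 (chromosome 17, 44557484 to 44561262, plus strand, a single exon), another Frizzled that takes part in both branches of the pathway, had normalized T>C reads of 263.6, 192.3 and 162.2 at 0h, 243.4, 175.8 and 166.9 at 3h, and 401.1, 285.6 and 191.1 at 24h. The cultures kept the same order at all 3 times, and the groups overlapped because S9CC47_R6 at 24h was below S9CC13_R6 at 0h. Within cultures the 24h change was 0.60, 0.57 and 0.24, and the fitted value was larger, 0.71 (SE 0.213, DESeq2 adjusted p = 0.0289). It was not called with the culture as a replicate block (0.48, adjusted p = 0.101), nor without the 24h library of S9CC13_R6 (0.46, adjusted p = 0.580), the 24h library of S9CC47_R5 (0.77, adjusted p = 0.159), the 0h library of S9CC47_R6 (0.58, adjusted p = 0.330) or the 3h library of S9CC47_R6 (0.42, adjusted p = 0.258).

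RSPO1, a secreted protein that strengthens WNT signals through LGR receptors (chromosome 1, 37611350 to 37634892, minus strand, last exon 37611350 to 37612921), was measured at lower depth, with 314 T>C reads over the 9 libraries. Its normalized T>C reads were 44.8, 43.5 and 51.0 at 0h, 14.6, 19.9 and 58.3 at 3h, and 18.0, 15.6 and 37.0 at 24h. At 24h all cultures were below 0h, and at 3h S9CC47_R6 stood apart from the other cultures. The fitted change at 24h was -1.57 (SE 0.414, DESeq2 adjusted p = 0.00732), larger than the changes of -1.29, -1.45 and -0.46 within cultures. With the culture as a replicate block it was -1.10 (adjusted p = 0.145), and the call was also lost without the 24h library of S9CC13_R6 (-1.53, adjusted p = 0.116) and without the 3h library of S9CC47_R6 (-1.01, adjusted p = 0.145).

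The difference between 24h and 3h was tested in the same fit, and 2 of the 34 genes were called (5.88%), FZD2 and FZD7, against 1.14% of all genes. FZD2 was higher at 24h than at 3h by 0.91 (SE 0.234, DESeq2 adjusted p = 0.0160), with 0.72, 0.70 and 0.20 within cultures. This call was lost without the 24h library of S9CC13_R6 or of S9CC47_R5, and without the 3h library of S9CC47_R5 or of S9CC47_R6 (adjusted p of up to 0.652), while that of FZD7 was kept in 3 of the 9 fits, those without the 3h library of S9CC13_R6, the 0h library of S9CC47_R5 or the 3h library of S9CC47_R6. With the culture as a replicate block 4 genes were called, FZD2, FZD7, FRZB and NKD1, while all genes called numbered 530 in place of 137.

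The genes that were not called form the larger part of the pathway. At 3h, 25 of 29 estimates lay within 0.5 of 0 on the log2 scale, and the 29 reached from -0.58 for RSPO1 to 1.17 for NKD2. At 24h 24 of 29 did, with a range from -0.90 for FZD5 to 0.87 for WNT3. The share over all genes not called was not counted, so nothing about the pathway is read from these counts.  CTNNB1, which encodes β-catenin, had an estimate of -0.01 at both times (SE 0.111 and 0.115), and estimates of the 7 intracellular genes lay between -0.14 and 0.10 at 3h, and between -0.19 and 0.39 at 24h. Among ligands, WNT5A had 0.11 and 0.30 and WNT5B, a related non-canonical ligand, -0.19 and -0.26 at 3h and 24h. The ubiquitin ligase gene ZNRF3 had -0.09 and -0.06. For low genes such as WNT3, with 53 T>C reads in all and an SE of 1.05 at 3h, a 2-fold change was not detectable at this depth.

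NKD2, the paralog of NKD1, was at the edge of the test. Its normalized T>C reads were 34.4, 27.8 and 16.8 at 0h, 59.5, 77.1 and 53.7 at 3h, and 33.2, 73.7 and 20.0 at 24h. The 3h libraries lay above all 0h libraries, and at 24h only S9CC47_R5 stayed high. The 3h estimate of 1.17 had a DESeq2 adjusted p of 0.135, and with the culture as a replicate block it was called (1.29, adjusted p = 0.0766).

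Unconverted reads, total minus T>C reads, hold RNA made before the label and new RNA that carries no conversion, and were fitted in the same way for 31 of the 42 genes. At 3h, 2 of 31 were called (6.45%) against 1.1% of all genes, FRZB at -0.29 (SE 0.0802, DESeq2 adjusted p = 0.0400) and NKD1 at 0.53 (SE 0.114, adjusted p = 7.59e-04). Unconverted NKD1 reads were 1538, 1455 and 1116 at 0h and 2272, 2383 and 1590 at 3h, without overlap. For FRZB the change was smaller than the -0.59 of its T>C reads, and it was not called with the culture as a replicate block (-0.33, adjusted p = 0.377). Leaving out 1 library at a time, the FRZB call was lost in 4 of 9 fits (the 0h or 3h library of S9CC13_R6 or S9CC47_R5) and the NKD1 call in 1 (the 3h library of S9CC47_R5). The difference between the kinds of read was not tested.

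At 24h, 6 of 31 genes were called in unconverted reads (19.4%), against 12.1% of all genes. FZD2 (0.80, DESeq2 adjusted p = 8.89e-04), FZD7 (0.74, adjusted p = 0.00487) and NKD2 (0.71, adjusted p = 0.00692) were higher, and ROR1 (-0.54, adjusted p = 8.85e-04), ROR2 (-0.28, adjusted p = 0.0400) and SFRP2 (-0.61, adjusted p = 2.06e-05) were lower. The estimate had the same sign as that of T>C reads in 22 of the 31 genes. The share over all genes was not counted, and both kinds of read come from the same libraries. Nothing about the pathway is therefore read from that count. With any 1 library left out, ROR1 and SFRP2 were kept. The count ranged from 2 without the 3h library of S9CC13_R6 to 10 without the 3h library of S9CC47_R6. All genes called numbered 334 and 2295 in these 2 fits, beside 1396 in the main fit, so the count moved with the calls over all genes. The calls of NKD2, FZD7, FZD2 and ROR2 were lost in 2, 4, 6 and 7 of those 9 fits. NKD2 was also not called with the culture as a replicate block (0.52, adjusted p = 0.109).

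**Figure D4:**
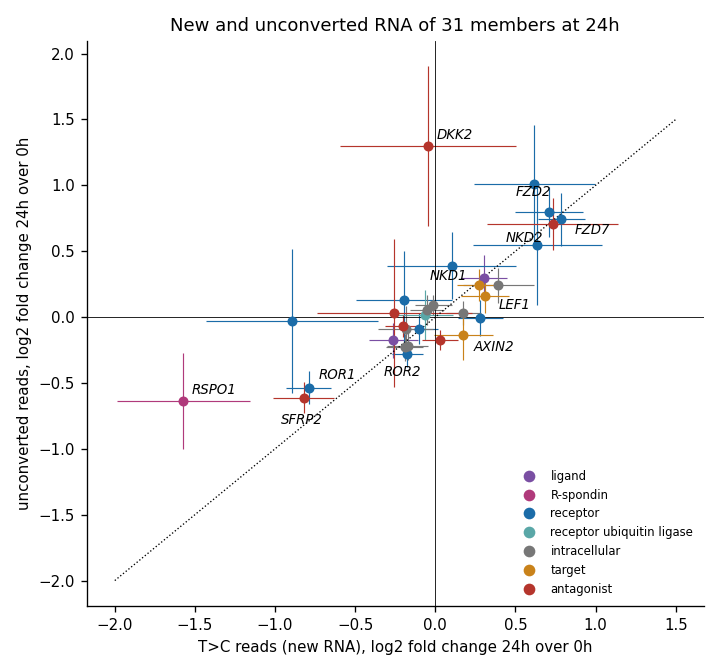
Log2 fold change at 24h against 0h in T>C reads (horizontal) and unconverted reads (vertical) for the 31 WNT pathway genes tested in both, with bars of 1 SE and the line of equal change dotted; color gives the role. DKK2 and FZD1 have the highest unconverted values (1.30 and 1.01, neither called), the called FZD2, FZD7 and NKD2 lie at the upper right, ROR1 and SFRP2 at the lower left, and RSPO1 has the lowest T>C value.

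Total reads, which are the sum of both kinds, were tested for 33 of the 42 genes. At 3h 3 were called (9.09%) against 1.89% of all genes, FRZB at -0.33, ROR1 at -0.39 and NKD1 at 0.55 (DESeq2 adjusted p = 0.00165, 0.00581 and 1.93e-04). At 24h 9 were called (27.3%) against 15% of all genes. FZD7 (0.78), FZD1 (0.79), FZD2 (0.75), NKD2 (0.70) and the ligand WNT5A (0.30) were higher, and RSPO1 (-1.02), ROR1 (-0.66), SFRP2 (-0.65) and ROR2 (-0.23) were lower. For ROR1 the total reads were 988.3, 1140 and 1022 at 0h and 648.2, 676.3 and 791.0 at 24h, without overlap. FZD1, a further Frizzled (adjusted p = 0.0505), and WNT5A (adjusted p = 0.0870) were called in none of the 9 fits that left out 1 library, and ROR2 in 1, FZD2 in 4 and FZD7 in 7 of them. At 3h NKD1 and ROR1 were each called in 7 of 9. WNT5A (0.32, adjusted p = 0.106) and RSPO1 (-0.66, adjusted p = 0.151) were not called with the culture as a replicate block.

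Between 24h and 3h, 5 of 33 genes were called in total reads (15.2%), against 5.39% of all genes. FZD2 (0.97) and FZD7 (0.46) were higher at 24h, and RSPO1 (-0.92), SFRP2 (-0.42) and TCF7L1 (-0.33), a TCF factor that mostly represses targets, were lower. With the culture as a replicate block 8 were called, which lost RSPO1 and added AXIN2, FRZB, NKD1 and SFRP1. All genes called numbered 1544 with the block, in place of 631. The WNT count was 0 without the 24h library of S9CC47_R5, the 3h library of S9CC47_R5 or the 3h library of S9CC47_R6. It was 6 without the 0h library of S9CC47_R5. All genes called numbered 287, 201, 42 and 806 in these fits, in that order.

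The T>C share of a gene is the percentage of its reads with a conversion. Before SOX9 was removed, its median was higher over the WNT pathway genes tested than over all genes tested. At 0h the median over the 34 genes was 46.6% (quartiles 30.8% and 57.2%), beside 27.8% over 12007 genes (quartiles 17.1% and 41.8%), and 27 of the 34 lay above the median of all genes. At the upper end were 69.9% ± 1.59 for WNT5A, 64.7% ± 3.44 for FZD7, 63.7% ± 13.6 for the antagonist DKK3 and 60.8% ± 3.24 for ZNRF3 (SD, n = 3 each). The roles were mixed along the range, and the receptor genes reached from 28.5% for LRP5 to 78.3% for FZD8. At the lower end were CTNNB1 with 15.7% ± 1.07, the antagonists SFRP1 with 12.6% ± 0.849 and FRZB with 22.8% ± 1.02, and SFRP2 with 23.0% ± 1.65. Of the genes called at 3h in new RNA, NKD1 had 34.1% ± 1.80, ROR1 49.1% ± 3.63 and ROR2 38.1% ± 3.54. NKD1, ROR1 and ROR2 thus lay above the median of all genes, and FRZB and SFRP2 below it. Most reads of FRZB, SFRP2, NKD1 and ROR2 at 0h carried no conversion. Genes entered through their T>C reads, which favors a high share among genes with few reads, in the WNT genes and in all genes alike. WNT3, FZD6 and FZD8 passed this way but had too few unconverted reads to be tested in them. The share depends on how fast an RNA turns over and on how many uridines the counted 3′ stretch holds, which the data do not separate, and it is given as a description without a test.

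**Figure D5:**
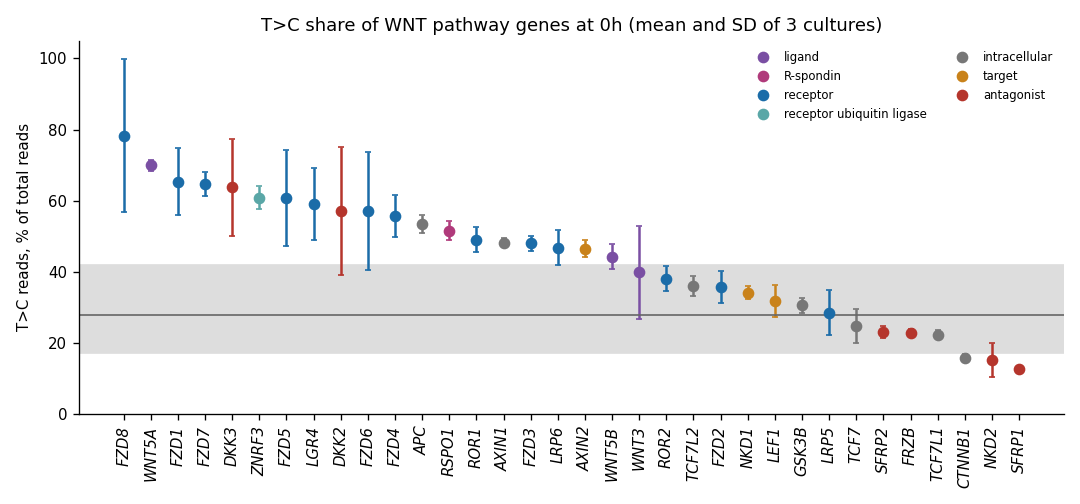
T>C reads as a percent of total reads at 0h for the 34 WNT pathway genes, as the mean and SD of 3 cultures, in falling order and colored by role; the gray line and band are the median and quartiles over all genes tested. FZD8 is at the top with a wide error bar, and SFRP1, NKD2 and CTNNB1 are the lowest.

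The cultures differed in some WNT genes by as much as the times did. No gene of the 34 differed more than 2-fold the same way at all 3 times between the clones (S9CC13_R6 over S9CC47_R6, 0.781% of all genes) or between the differentiation batches (S9CC47_R5 over S9CC47_R6, 0.665% of all genes). AXIN2 was higher in clone S9CC13 by 0.58, 0.66 and 0.52 on the log2 scale at 0h, 3h and 24h. NKD1 was higher by 0.65, 0.76 and 0.70 in the same pair, and by 0.51, 0.90 and 0.72 in batch R5 over R6, so that S9CC47_R6 was the culture that stood lower. DKK2, a secreted ligand of LRP6, differed by -0.74, -1.66 and -0.85 in batch R5 over R6. Each pair is 1 culture against 1, without a test.

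A further list of 89 genes of the pathway, among them other co-receptors, intracellular partners and readouts, was fitted alongside. It too was chosen with earlier results of these data known, so its shares are descriptive. Of the 57 tested at 3h, 7 were called (12.3%) against 1.79% of all genes, 4 higher (1.01% of all genes) and 3 lower (0.789%). FGF18, a growth factor often used as a readout, rose by 0.75 (SE 0.104, DESeq2 adjusted p = 2.07e-10), CXXC5, a Dishevelled-binding inhibitor, by 0.61, BCL9L, a co-activator of β-catenin, by 0.66 and IGFBP4, which binds LRP6, by 0.46. The co-repressors TLE1 and TLE3 fell by 0.50 and 0.67, and the receptor TNFRSF19 fell by 0.49. With 1 library left out at a time, FGF18, CXXC5 and BCL9L were called in all 9 fits, while IGFBP4, TLE3, TLE1 and TNFRSF19 were lost in 4, 4, 5 and 8 of them. In T>C reads at 24h 3 of 57 were called (5.26%), a share near the 4.98% of all genes. These were FGF18 at 1.14, CXXC5 at 0.84 and the co-repressor TLE4 at 0.48, of which TLE4 was lost in 5 of the 9 fits. The quasi-likelihood test of edgeR called 8 of the list and 968 of all genes, beside 599 of all genes in DESeq2. In total reads at 24h more of the list passed, 16 of 54 (29.6%) against 15% of all genes. Of its 6 often used readouts 5 were called there, 4 higher and 1 lower, whereas T>C reads gave only FGF18. Alternatives were not run for the further list in total reads. Normalized T>C reads of FGF18 had group means of 611.7, 1029 and 1355 at 0h, 3h and 24h, and those of CXXC5 were 1507, 2282 and 2680. In both genes all 3 cultures rose at each time against 0h without overlap with it, while TLE3 overlapped at 3h. Between 24h and 3h, 3 of 57 were called (5.26%) against 1.14% of all genes, as FGF18 (0.39) and MYC (1.44) were higher and GPC3, a cell surface proteoglycan, was lower (-0.54).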

How the data were processed

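SLAM-seq libraries of 9 samples (3 groups of 3 cultures, assigned from the sample titles) were analysed. The authors deposited raw read counts per gene symbol, one table of total reads and one of T>C reads. By the study's methods, read 1 was trimmed with skewer and of poly(A), and mapped and counted with slamdunk; the labels name hg38. The deposited counts were not normalized. Molecular identifiers are not stated, so counting limits cover counting error only. Symbols were matched to GENCODE release 44, which gave positions and 18769 protein-coding genes; the counted 3′ intervals were not used here. The last exon of none of the 8 genes called in T>C reads overlaps another gene.

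The counts of all 9 libraries entered 1 fit per kind of read in DESeq2 1.42.0 under R 4.3.3. Its terms, after the study's design, were the time, the batch and 1 surrogate variable from svaseq (sva 3.50.0). Protein-coding genes at 1 CPM in 3 or more samples were tested (12037 for T>C, 11710 for total and 11529 for unconverted reads), with independent filtering off and Benjamini-Hochberg adjustment over all of them, called under 0.1. Both tests used were checked on simulated independent counts with known 2-fold changes and the same dispersion for all genes. The simulation held no batch or culture effect, so it does not bear on how calls depend on the surrogate variable or on single libraries. Values in all libraries were given for genes called in T>C reads and for target genes. The WNT genes, the further list and the rule were chosen with earlier results of these data known.

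Clone and batch in the titles pair the libraries of a culture across times. Deviations from group means correlated at 0.124 on average over the 9 same-culture pairs in T>C reads (0.0267 to 0.249) and at 0.278 in total reads (-0.049 to 0.604). Alternatives were edgeR's quasi-likelihood test (4.0.16), TMM factors, no low-count filter, no surrogate variable, the culture as a replicate block with and without a surrogate variable, size factors of total reads, an adjusted p-value under 0.05, and each library left out. Differences between cultures were ratios of normalized T>C reads with a pseudocount of 0.5.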

Additional observations from a re-analysis of the deposited data

Results flagged for a closer look

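The change from 3h to 24h of SOX9 depletion was tested directly for each WNT gene, and the genes below differed between the times in DESeq2 (adjusted p-value under 0.1). In T>C reads FZD2 was higher at 24h by 0.91 on the log2 scale (adjusted p = 0.0160) and FZD7 by 0.52 (adjusted p = 0.0769). In total reads FZD2 was higher by 0.97 (adjusted p = 0.0280) and FZD7 by 0.46 (adjusted p = 0.0359). Total reads of RSPO1 (-0.92, adjusted p = 0.0435), SFRP2 (-0.42, adjusted p = 0.0125) and TCF7L1 (-0.33, adjusted p = 0.0704) were lower at 24h than at 3h. None of these calls was kept in all 9 fits that left out 1 library. In T>C reads FZD2 was lost in 4 of them and FZD7 in 6. In total reads FZD2, FZD7, RSPO1, SFRP2 and TCF7L1 were lost in 5, 8, 4, 3 and 7. Groups of 3 libraries were too small to test for outlying libraries.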

How the results depend on the processing

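In T>C reads FRZB at 3h and FZD7, ROR1 and SFRP2 at 24h kept their direction and call in all 17 alternatives, and ROR1 and SFRP2 at 24h did so in total and unconverted reads too. The other calls were lost in at least 1 alternative. Without the surrogate variable the WNT genes called in T>C reads numbered 1 at 3h in place of 5 and 3 at 24h in place of 5. Those lost were NKD1, ROR1, ROR2 and SFRP2 at 3h, and FZD2 and RSPO1 at 24h. All genes called numbered 145 in place of 216 and 616 in place of 599. In total reads the WNT genes numbered 1 in place of 3, 5 in place of 9 and, between 24h and 3h, 3 in place of 5. All genes numbered 118 in place of 221, 1341 in place of 1751 and 901 in place of 631. In unconverted reads at 3h the WNT genes numbered 1 in place of 2, and all genes 70 in place of 127. The further list at 24h had 6 in place of 3. Low depth limits WNT3, FZD5, FZD6, FZD8, DKK2 and DKK3 most.

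An adjusted p-value under 0.05 left 2 genes at 3h and 1 between 24h and 3h in T>C reads, and 5 at 24h and 4 between 24h and 3h in total reads. All genes then numbered 169, 101, 1224 and 454 in the same order, in place of 216, 137, 1751 and 631. With the culture as a replicate block, T>C reads gave 3 genes at 24h and 4 between 24h and 3h, total reads gave 8 between 24h and 3h, unconverted reads gave 1 at 3h and the further list gave 7 at 24h; apart from these and the single genes given above, it added SFRP1 at 24h in total and unconverted reads, and in the further list it lost TNFRSF19 at 3h and added BAMBI, GPC3, MYC and SHISA2 at 24h. All genes called with the block numbered 722 at 24h and 530 between 24h and 3h in T>C reads. They numbered 1544 between 24h and 3h in total reads and 88 at 3h in unconverted reads. The block with a surrogate variable gave 1 between 24h and 3h in T>C reads, where 60 of all genes were called. edgeR's quasi-likelihood test gave 1 gene at 3h in unconverted reads and 8 of the further list at 24h, where all genes called numbered 131 and 968. At 1.5-fold in place of 2-fold, 1 gene differed between clones (NKD1) and 1 between batches (DKK2). The share over all genes was not counted at 1.5-fold, so nothing about the pathway is read from these counts.

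With each library left out in turn, T>C reads gave 1 to 4 genes at 3h, 3 to 5 at 24h and 0 to 5 between 24h and 3h. Total reads gave 2 to 3, 4 to 8 and 0 to 6, and unconverted reads 0 to 3 at 3h and 2 to 10 at 24h. The further list gave 3 to 6 at 3h and 2 to 8 at 24h. Over all genes the counts ranged from 108 to 246, 274 to 1155 and 47 to 1674 in T>C reads. In total reads they ranged from 102 to 294, 424 to 1978 and 42 to 806. In unconverted reads they ranged from 56 to 351 at 3h and 334 to 2295 at 24h. The AXIN2 estimate at 24h (0.18) turned to -0.0296 without the surrogate variable, to -0.0311 with the culture as a replicate block and to -0.0684 without the 3h library of S9CC47_R6, the lowest value with 1 library left out; the highest was 0.320. The causes were not tested.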
